A study of Mus musculus with 2 samples.

Results

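The immunoglobulin light chain genes of the mouse sit at 2 loci. CTCF binding was examined at the joining and constant end of Igk, with its 3′ flank, and along Igl with both flanks. Members were the CTCF regions whose midpoint lay in the 400 kb of mm9 chromosome 6 that end at position 71000000 (the Igk constant end window), or in mm9 chromosome 16 from 18800000 to 19500000 (the Igl window). There were 39 of them, 27 at the Igk constant end and 12 at Igl, out of 51660 regions on the 19 autosomes and the X (0.0755%). A region is a stretch of adjoining 25-bp windows that the authors placed in a peak. The rule used position only, so widths, spacing and numbers were free to vary.

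CTCF occupancy was measured by chromatin immunoprecipitation and sequencing (ChIP-seq) in CD4+CD8+ (DP) thymocytes, the stage at which developing T cells carry both co-receptors. The cells came from C57BL/6 mice aged 4 to 8 weeks that were Rag1-/- and carried a rearranged T cell receptor beta transgene. The labels list 1 library made with an anti-CTCF antibody and 1 input library of the same genotype, stage and age, and neither the promoter of the transgene nor the number of mice is given in the sources used here. Only the CTCF library was analysed here, so there was no replicate, no test between conditions and no correction for input. The sequencing depth is unknown, and a position list holds no expression values from which the stage could be checked.

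CTCF recognises DNA through its zinc fingers and, together with cohesin, holds the bases of chromatin loops. At antigen receptor loci such loops bring distant V segments near the J segments, and recombination itself needs the Rag1 and Rag2 proteins. In B lineage cells the stretch between the Igk V and J segments is known for the CTCF-binding elements Cer and Sis, which shape the choice of V segments. Light chain loci are assembled in B cells and stay in germline order in the T lineage, and in these mice Rag1 was also missing. Igkc encodes the constant part of the kappa light chain, and Iglc1 and Iglc2 encode constant parts of lambda light chains.

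In the RefSeq gene table of GRCm38, which was used for gene order only, the last Igk V segment, Igkv3-1, is followed by the 5 joining segments Igkj1 to Igkj5 and then by Igkc. Beyond Igkc come Rpia, an enzyme of the pentose phosphate pathway, Eif2ak3, a kinase of the unfolded protein response, Tex37, and Foxi3, a forkhead transcription factor. The order at Igl begins in the flank with Cdc45, a replication factor, Ufd1, a cofactor of protein degradation, Mrpl40, a mitochondrial ribosomal protein, and Hira, a histone chaperone. It continues with Iglc1, Iglj1, Iglc3, Iglj3 and Iglv1, then Iglc4, Iglj4, Iglc2, Iglj2, Iglv3 and Iglv2, and ends with olfactory receptor genes from Olfr164 onward. Coordinates of that build were not set against the mm9 positions below, so no region is assigned to a gene, an exon, a promoter or a named element.

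The Igk constant end held CTCF regions at a higher density than the genome, and Igl did not. The Igk window held 27 regions in 400 kb, or 67.5 per Mb (exact 95% Poisson interval 44.5 to 98.2), and the Igl window held 12 in 700 kb, or 17.1 per Mb (8.86 to 29.9). The autosomes and the X together held 19.6 per Mb. These intervals cover counting error only and treat regions as independent, although neighbouring regions can belong to 1 site. The interval of the Igk window overlapped neither the genome value nor the interval of Igl, and that of Igl included the genome value. After regions at most 500 bp apart were joined, the Igk window held 19 regions (47.5 per Mb, 28.6 to 74.2) and Igl 5 (7.14 per Mb, 2.32 to 16.7), against 17.2 per Mb in the genome. The interval of Igl then lay below the genome value. That value is a mean, and the interval does not measure how stretches of the genome differ from each other. It therefore does not place Igl below a typical stretch, and the median 700-kb bin held 8 regions after the same joining.

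Set against every non-overlapping bin of the same length, the Igk window stood near the upper edge. The 6584 bins of 400 kb had a median of 4 regions (quartiles 0 and 13, highest 59), and 5.03% of them held at least 27. On chromosome 6 alone, 11 of 373 bins (2.95%) did. With regions at most 500 bp apart joined, 9.72% of all 400-kb bins held at least the 19 regions of the Igk window. The Igk regions covered 11925 bp, or 2.98% of the window, which 5.3% of all bins reached, whereas regions covered 0.865% of the genome. Igl lay in the middle of its own distribution, since the 3756 bins of 700 kb had a median of 9 regions and 43.9% held at least 12. After joining at 500 bp, 60.5% held at least the 5 of Igl. Its regions covered 3400 bp (0.486% of the window), which 52.6% of bins reached.

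**Figure D1:**
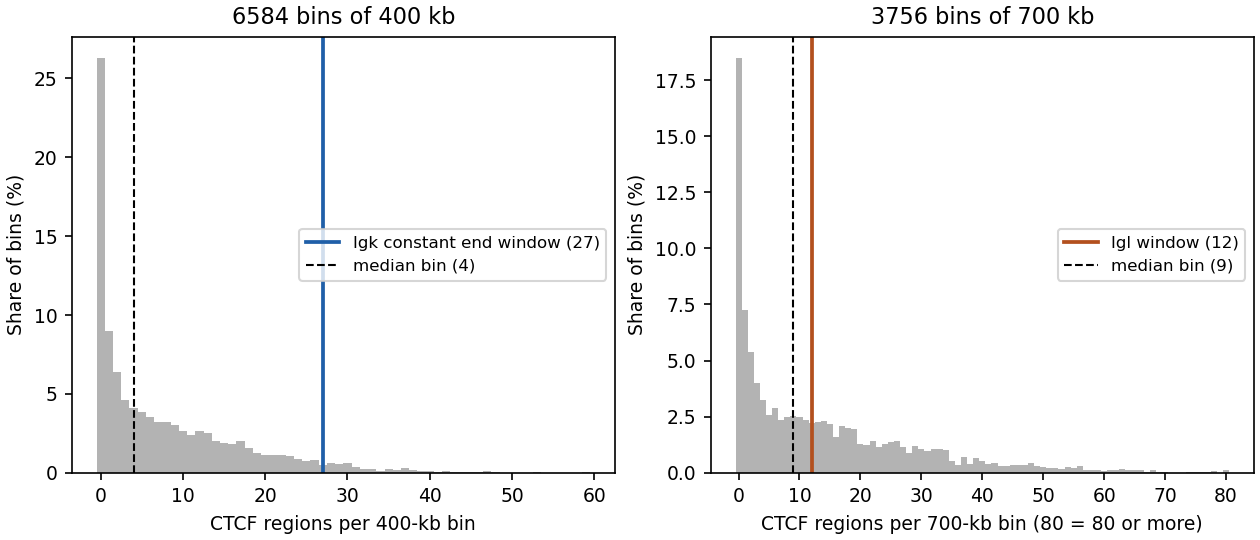
Share of all 400-kb bins (left) and 700-kb bins (right) of the autosomes and the X, in percent, by the number of CTCF regions they hold, with the last bar of the right panel for 80 or more. The coloured line marks the Igk constant end window (27 regions, against 4 in the median bin) and the Igl window (12 regions, against 9).

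The dense end of Igk followed a V array with fewer regions per Mb than the genome as a whole. The Igk V array, 3100 kb directly below the window, held 12 regions, or 3.87 per Mb (2.00 to 6.76), and no region was listed between 70097371 and 70659145, a stretch of 562 kb that takes in the first part of the constant end window. Of the gaps between neighbouring regions of the genome, 1.22% were at least as long. That share counts gaps, whose median was 13.1 kb, and long empty stretches were common by length. Of the 400-kb bins of the genome, 26.3% held no region. Bins of 3100 kb were not counted, so the place of the V array among stretches of its length is not known. The last region before the stretch of 562 kb was 50 bp wide (70097321 to 70097370). Among the constant ends of other antigen receptor loci, in windows of 400 kb as well, the Tcra/Tcrd end had 19 regions (47.5 per Mb, 28.6 to 74.2), the Igh 3′ end 18 (45.0 per Mb, 26.7 to 71.1) and the Tcrb end 14 (35.0 per Mb, 19.1 to 58.7). Each of these 3 intervals overlapped that of the Igk constant end. Overlap of intervals does not show whether 2 counts differ, and a difference between the 4 ends was not tested. After regions at most 500 bp apart were joined, the Igk and Tcra/Tcrd ends held 19 each, the Igh end 15 and the Tcrb end 14. Without joining, regions of the Igh end covered 12275 bp, against 11925 bp at the Igk end. Their bounds were rounded and came from general knowledge of mm9.

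**Figure D2:**
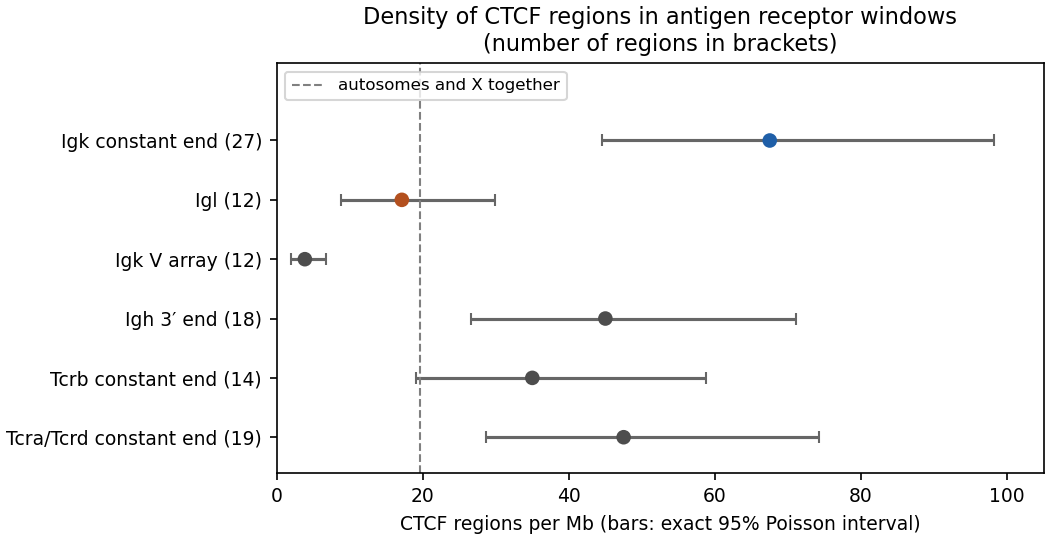
CTCF regions per Mb in the Igk constant end, Igl and 4 other antigen receptor windows, with exact 95% Poisson intervals and the number of regions in brackets. The dashed line is the density of the autosomes and the X together (19.6 per Mb). The Igk constant end (67.5) and the Igk V array (3.87) lie on opposite sides of it, and the intervals of the 4 constant ends overlap.

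The regions of the Igk window were crowded into 1 part of it. From low to high coordinates, its 4 blocks of 100 kb held 5, 14, 3 and 5 regions. A count of 14 or more was found in 0.516% of the 26359 bins of 100 kb in the genome, where the median was 1 region and 47.9% of bins were empty. A count of 5 or more was found in 15.9%. The block of 14 was the highest of the 4, and the limits of 14 and 5 were taken from these same counts. Close neighbours were counted apart here, and some regions of that block lay only 25 bp from the next. The median gap between neighbouring members was 5.31 kb, compared with 13.1 kb between neighbouring regions of the genome. Gaps that cross a bound of the window were left out of the member value. At Igl, where the density was not above that of the genome, the median gap was 0.275 kb. A short median gap therefore does not by itself mean a high density.

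The first members met from the V side formed a group of 5 regions within 5550 bp (70659146 to 70664695). It opened with a region of 650 bp (70659146 to 70659795) that had one of 125 bp (70659821 to 70659945) only 25 bp away. After 3025 bp came 2 regions of 625 bp each (70662971 to 70663595 and 70664071 to 70664695) with one of 50 bp between them (70663721 to 70663770). The group thus held 3 regions of full width, meaning at least the genome median of 525 bp, and both narrow ones lay within 300 bp of a full-width region. Its 10 kb covered 2075 bp, a value reached in 1.90% of cases when 10 kb were taken from the start of every region of the genome. Groups were formed from members at most 5 kb apart, a limit set for both windows after the positions were seen. The stretch was thus picked with the positions known, and the share only describes it. After the group, no region was listed for 37.7 kb (70664696 to 70702370).

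Next came 4 single full-width regions, each without a neighbour within 1 kb. The first was 525 bp wide (70702371 to 70702895), and after 15.7 kb a region of 650 bp followed (70718621 to 70719270). At a further 22.6 kb lay one of 550 bp (70741846 to 70742395), and the last, of 650 bp (70747721 to 70748370), came 5.325 kb later.

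Beyond these singles lay a train of 3 full-width regions in immediate succession, an arrangement that occurred once in the genome as counted below. The first measured 725 bp (70754371 to 70755095), the middle one 625 bp (70755121 to 70755745) and the last 650 bp (70755771 to 70756420), and each was parted from the next by a single unlisted window of 25 bp. Over their span of 2050 bp, 97.6% of the bases were listed. When regions at most 25 bp apart were joined across the genome, 49499 runs resulted. Of these, 148 consisted of at least 3 regions of any width. When every region had to be of full width, 34 runs of at least 2 regions were left. Only 1 of at least 3 was left, namely this train. In length it ranked 6 of all runs, with 5 longer ones. The 10 kb that begin with the region of 650 bp at 70747721 covered 2650 bp, which was reached in 0.449% of cases. That start was picked with the positions known, so that the stretch took in both this region and the train. The share therefore only describes a picked stretch and does not measure how rare it is. The search for such trains was made after this one had been seen, and the file does not record where the authors' peak caller split neighbouring peaks.

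The widths fell after the train. A region of 600 bp (70761721 to 70762320) was followed by 400 bp (70765521 to 70765920) and 25 bp (70766171 to 70766195). A group of 4 narrow regions then spread over 2350 bp, with widths of 25, 25, 175 and 125 bp (from 70774446, 70774496, 70774546 and 70776671). None of these 4 had a full-width region within 1 kb. After 70776795 no region was listed for 47.1 kb.

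The far flank held 8 scattered members. A full-width region of 625 bp (70823921 to 70824545) led it, with 2 of 650 bp after it (70830771 to 70831420 and 70871671 to 70872320). They were followed by narrow single regions of 100 bp (70904121 to 70904220) and 175 bp (70937171 to 70937345). The widest member of the window came next, at 775 bp (70962521 to 70963295), a width that 4.31% of all regions reached. A region of 500 bp (70966271 to 70966770) and one of 625 bp (70980396 to 70981020) closed the window. The nearest region above the bound, at 71012846 to 71013470, was 625 bp wide and lay 31.8 kb beyond the last member.

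**Figure D3:**
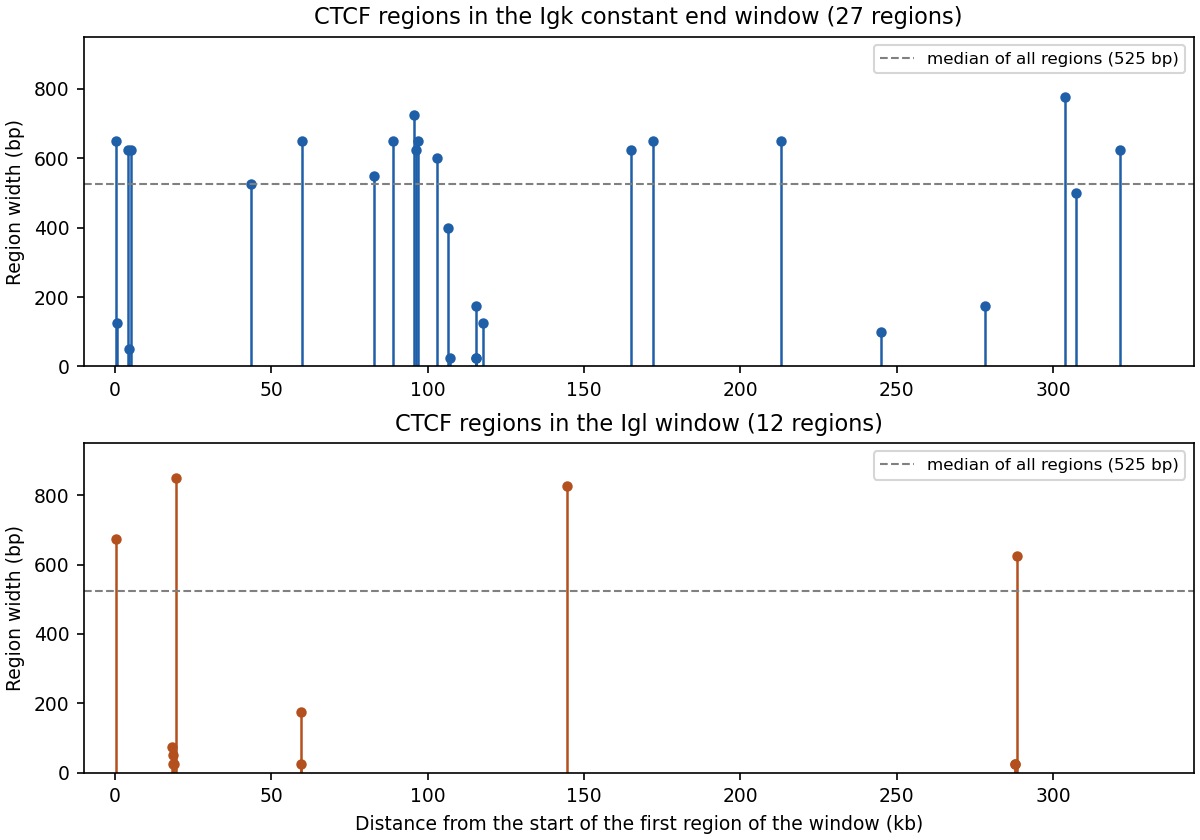
Width in bp of each CTCF region (points) against its distance in kb from the first region of its window, for the 27 regions of the Igk constant end (top) and the 12 of Igl (bottom). The dashed line is the median of all regions (525 bp). Full-width regions recur along the Igk window with the train near 96 kb, while Igl holds 4 regions of at least 625 bp and 8 of at most 200 bp.

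The 12 regions of Igl lay in 5 separate places, and all of them were in the lower part of the window. Its 7 blocks of 100 kb held 6, 2, 1, 3, 0, 0 and 0 regions. The first member was a single region of 675 bp (18858528 to 18859202). A region of 550 bp (18798853 to 18799402) missed the window by 0.598 kb, and the gap between it and the first member was 59.1 kb. At 17.4 kb after the first member came 5 regions within 1900 bp. They were 4 short ones of 75, 50, 25 and 25 bp (from 18876628, 18876878, 18876953 and 18877253) and one of 850 bp (18877678 to 18878527), the widest of all 39 members. This group covered 1025 bp in 10 kb, which was reached in 22.8% of cases when 10 kb were taken from the start of every region. A width of 850 bp was reached by 2.73% of the regions of the genome.

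The third place in the Igl window held only narrow regions, 25 bp (18917853 to 18917877) and 175 bp (18917928 to 18918102). It was followed by 84.6 kb without a region and then by a single region of 825 bp (19002728 to 19003552), a width that 3.17% of all regions reached. A longer empty stretch of 143 kb separated it from the last place, where 2 regions of 25 bp (from 19146328 and 19146428) preceded one of 625 bp (19146553 to 19147177). From 19147178 to 19666427 no region was listed, a stretch of 519 kb that crossed the upper bound of the window. Of the gaps in the genome, 1.33% were at least as long, while 18.5% of the 700-kb bins held no region. The next region, beyond the window, was 375 bp wide (19666428 to 19666802). The file does not say which positions could be mapped, so an unlisted stretch is not shown to be free of CTCF.

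The order of the 2 loci by width depended on whether short regions and close neighbours were counted apart. With every region counted, at the Igk constant end 16 of 27 regions (59.3%) were of full width, compared with a background of 51.8% of all regions, and at Igl 4 of 12 (33.3%) were. The median width was 600 bp at the Igk end and 62.5 bp at Igl, against 525 bp in the genome. Regions of at most 75 bp numbered 4 of 27 (14.8%) at the Igk end, near the background of 14.1%, and 7 of 12 (58.3%) at Igl. Without these short regions the order turned: 4 of 5 Igl regions (80%) and 16 of 23 Igk regions (69.6%) were of full width, against 60.3% of all regions, and the medians were 675 bp at Igl, 625 bp at the Igk end and 575 bp in the genome. Joining regions at most 500 bp apart turned it as well, with medians of 825 bp at Igl, 625 bp at the Igk end and 550 bp in the genome. With joining at 100 bp the Igl median was 462.5 bp, under the 612.5 bp of the Igk end. Few members had a width above 200 bp and under 525 bp. There were 2 at the Igk end (7.41%) and 0 at Igl, compared with 23.4% of all regions. The limit of 200 bp was not part of the plan and falls in a range of widths that no member had. With 12 regions in 5 places, the Igl shares rest on few independent positions, and no test was made.

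**Figure D4:**
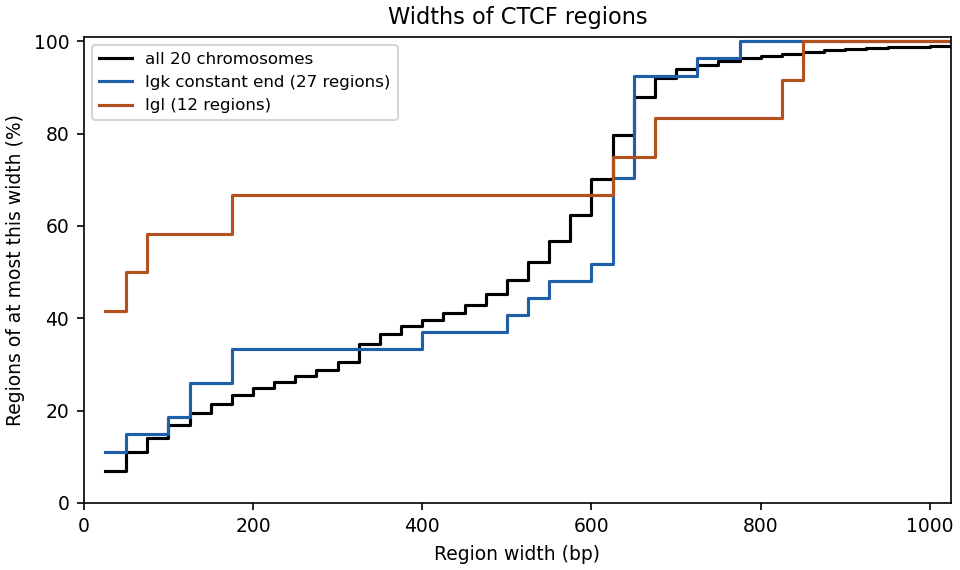
Cumulative share of CTCF regions, in percent, by width in bp for the whole genome (black), the Igk constant end (27 regions) and Igl (12 regions). The Igl curve starts at 41.7% for 25 bp against 6.80% in the genome, and both light chain curves are flat between 200 and 375 bp.

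In 2 places of Igl, narrow regions accompanied wide ones. Of its 8 regions of at most 200 bp, 6 had a full-width region within 1 kb, compared with 19.2% of the 12827 regions of this kind in the genome, and those 6 sat in 2 places. At the Igk end 2 of 9 did (22.2%). The other 2 narrow regions of Igl sat together, so its share does not rest on independent regions. Any neighbour within 1 kb was found for 10 of the 12 Igl members and 13 of the 27 Igk members (48.1%), against a background of 26.8%. Some full-width regions lay at most 500 bp from another one. At the Igk end, 5 of the 16 full-width regions had such a partner, and at Igl 0 of 4 had one, compared with 4.36% of the 26765 full-width regions of the genome. These 5 were the regions of 625 bp in the first group and the 3 members of the train. They sat in 2 places that had already been seen, so this share does not rest on independent regions either. The measure was not part of the plan.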

How the data were processed

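Bowtie and the build mm9 are named in the submitters' processing notes. How peaks were called, at what threshold and whether the input entered were not given in the sources used here. For the CTCF library the deposited file lists 912174 windows of 25 bp, with no height, count or score. Widths were therefore described in place of heights. Starts were read as counted from 0 and are printed counted from 1. Adjoining windows (gap 0 bp) were joined, which gave 51661 regions, of which 1 on the mitochondrial genome was left out.

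Bins of 100, 400 and 700 kb start at the first base of each chromosome and end at its last listed base, and incomplete bins were dropped. Joining, membership and bins were tested on simulated data. The members, windows and measures were chosen with earlier results of these data known. Every member is described, and genes are named only from the gene order of RefSeq (GRCm38) in or beside both loci, where all 3 of Igkc, Iglc1 and Iglc2 were found. Alternatives were joining at 25 (added later), 100, 500 or 1000 bp, leaving out regions of at most 75 bp, bounds moved by 50 kb, and membership by any overlap. No mm9 sequence was used here, so no sequence of a region is shown. The software was Python 3.11.15 with SciPy 1.17.1, pandas 2.3.3, NumPy 2.4.6 and, for plots, matplotlib 3.10.9.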

Additional observations from a re-analysis of the deposited data

How the results depend on the processing

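Number of regions, covered bases and median width of both windows were recomputed under 8 alternatives. At the Igk constant end all 3 stayed within 1.5 times, or within the interval of the median width, in each of them: 19 to 28 regions, 10025 to 12725 covered bp and a median width of 575 to 625 bp. Its share of bins with at least as many regions was 5.06% to 9.72% after joining regions or leaving out short ones. At Igl the number fell from 12 to 5 with joining at 500 bp, with joining at 1000 bp and without regions of at most 75 bp, and by construction the median width was 825 bp after joining at 500 or 1000 bp. The median width of Igl, 62.5 bp with every region counted, was not stable: it was also 462.5 bp with joining at 100 bp and 675 bp without short regions, and the interval of 25 to 675 bp that holds these values spans most widths in the window. The number of regions under the other alternatives and the covered bases under all of them stayed within 1.5 times. Joining at 25 bp was chosen after seeing the data. No paired analysis was possible because only 1 library had positions. Without depth or counts, neither weak binding nor its absence can be read from an unlisted position.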
